A study of Mus musculus with 12 samples.

Results

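The proteasome was followed at the RNA level through every gene whose symbol starts with Psm, a letter from a to g and a number, which gave 51 of the 21956 genes in the deposited count table. Brain tissue beside the injection site was compared in 12 mice, 3 in each of the groups Sham-Fabp4flox/flox, Sham-Fabp4CKO, ICH-Fabp4flox/flox and ICH-Fabp4CKO. ICH was intracerebral hemorrhage made by injecting collagenase into the right striatum, and tissue was taken 48 h after it. Sham mice had the same operation without collagenase, and their time of sampling was not given in the sources used here. Both genotypes carried floxed Fabp4 alleles, and the CKO mice also carried Tmem119-creERT2, an inducible Cre driven by a microglial promoter, switched on by 150 mg/kg of tamoxifen, given daily over 7 days and ended 14 days before surgery. Whether flox/flox mice also received tamoxifen, and the age of the floxed mice, were not given in the sources used here. Each library was bulk poly(A) RNA of 1 tissue piece, so fewer cells of a type and less RNA per cell cannot be told apart.

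The libraries held 15650813 to 22406216 counts, and markers of striatal neurons were present in all of them. Fabp4, the floxed gene, had 46, 63 and 24 counts in the 3 ICH-Fabp4flox/flox mice against 5, 3 and 10 in the 3 ICH-Fabp4CKO mice, and at most 2 counts in any sham mouse. Mitochondrial genes took 16.3% of the counts of ICH-Fabp4flox/flox mouse 1 and 7.90% to 11.9% of the other libraries. ICH-Fabp4CKO mouse 2 stood apart in its group, with a summed level of 415 CPM (counts scaled to a library of 1e+06 after TMM adjustment of library sizes) over 8 monocyte and macrophage markers against 2289 and 2892 in the other mice. Values that rest on these libraries are given below with and without them.

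The 26S proteasome destroys proteins tagged with ubiquitin. Its 20S core is a barrel of outer alpha rings and inner beta rings, and only 3 kinds of beta subunit cut proteins, encoded by Psmb5, Psmb6 and Psmb7. The 19S cap, made of a base with ATPases (Psmc genes) and a lid (most Psmd genes), binds and unfolds the tagged protein. Interferon gamma is known to induce 3 replacement catalytic subunits, Psmb8, Psmb9 and Psmb10, which take the places of Psmb5, Psmb6 and Psmb7 in a newly built core called the immunoproteasome. It also induces Psme1 and Psme2, the subunits of the PA28 cap that opens the core. Microglia and invading macrophages are cells in which this form is abundant, and its products feed peptide loading onto MHC class I.

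Of the 51 genes, 31 encode constitutive parts of the 26S particle, namely 7 alpha ring, 4 structural beta, 3 catalytic beta, 6 ATPase, 3 other base and 8 lid subunits. The 5 inducible subunits were set against these. The remaining 15 genes were the tissue-restricted core subunits Psma8 and Psmb11, the Psme2 near-copy Psme2b, the other activators Psme3 and Psme4, the inhibitor Psmf1, 3 chaperones of 19S assembly, 4 chaperones of 20S assembly, and Psmc3ip and Psme3ip1, which match the name only and are not parts of the proteasome.

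Promoter windows are shown for Psmb8 and Psmb9, which rose most after ICH, for their constitutive counterparts Psmb5 and Psmb6, and for Psme1, the inducible gene whose window held an ISRE match. Each window holds 300 bases of the RefSeq sequence on GRCm38.p6, from 250 bases before to 50 after the start of the gene, written 5′ to 3′ on the gene's own strand. Capitals mark matches on either strand to ISRE (GAAANNGAAA, bound by interferon regulatory factors), GAS (TTCNNNGAA, the gamma-activated site) or ARE (TGACNNNGC, bound by Nrf factors), and no match overlapped another in these windows.

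Psmb8, chr17:34197945-34198244, plus strand: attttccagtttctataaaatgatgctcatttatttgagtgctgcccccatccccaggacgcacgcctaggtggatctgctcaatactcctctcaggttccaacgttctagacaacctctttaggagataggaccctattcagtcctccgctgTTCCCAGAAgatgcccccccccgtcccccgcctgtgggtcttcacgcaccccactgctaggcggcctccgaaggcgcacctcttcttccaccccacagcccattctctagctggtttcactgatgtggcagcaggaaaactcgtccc
Psmb9, chr17:34187281-34187580, minus strand: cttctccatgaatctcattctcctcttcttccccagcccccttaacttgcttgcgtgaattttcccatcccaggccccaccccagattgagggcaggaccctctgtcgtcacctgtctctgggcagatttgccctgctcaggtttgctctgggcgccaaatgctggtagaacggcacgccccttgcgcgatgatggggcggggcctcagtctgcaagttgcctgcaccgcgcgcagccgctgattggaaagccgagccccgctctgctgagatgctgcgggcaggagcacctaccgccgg
Psme1, chr14:55578244-55578543, plus strand: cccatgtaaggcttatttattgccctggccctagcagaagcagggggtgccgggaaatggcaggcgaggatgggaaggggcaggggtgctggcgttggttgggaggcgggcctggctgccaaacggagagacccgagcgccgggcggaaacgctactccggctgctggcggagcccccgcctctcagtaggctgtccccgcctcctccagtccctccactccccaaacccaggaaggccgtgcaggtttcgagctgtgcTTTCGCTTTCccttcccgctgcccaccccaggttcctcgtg
Psmb5, chr14:54617946-54618245, minus strand: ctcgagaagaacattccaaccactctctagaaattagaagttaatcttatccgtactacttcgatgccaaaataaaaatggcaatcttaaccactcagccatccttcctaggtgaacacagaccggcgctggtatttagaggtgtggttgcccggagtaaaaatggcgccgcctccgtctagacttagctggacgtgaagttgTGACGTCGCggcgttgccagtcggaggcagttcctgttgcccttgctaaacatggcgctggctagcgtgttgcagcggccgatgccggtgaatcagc
Psmb6, chr11:70525107-70525406, plus strand: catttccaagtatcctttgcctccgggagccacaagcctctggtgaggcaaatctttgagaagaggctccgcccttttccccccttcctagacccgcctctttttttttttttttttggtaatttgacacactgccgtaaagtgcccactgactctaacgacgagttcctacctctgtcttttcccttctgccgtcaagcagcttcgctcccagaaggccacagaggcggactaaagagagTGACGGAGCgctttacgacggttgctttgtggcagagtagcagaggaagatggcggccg

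The Psmb8 window held a GAS match and the Psme1 window an ISRE match, while the Psmb5 and Psmb6 windows each held an ARE match. The Psmb9 window held none of these letters, nor did those of Psmb10 and Psme2. It shared 275 bases with the window of Tap1, a peptide transporter gene that starts on the opposite strand. Among all 32851 windows, 3.44% held ISRE, 8.30% held GAS and 12.4% held ARE. Of 25 constitutive 26S genes with a window, 2 held ISRE, 1 held GAS and 4 held ARE. A match is a run of letters and not evidence of binding.

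In mice with intact Fabp4, ICH raised all 5 inducible subunits, by 2.09-fold for Psme1 to 10.6-fold for Psmb8. The constitutive catalytic subunits Psmb5 and Psmb7 did not pass the test, and Psmb6 rose 1.59-fold. Of 49 members tested, 10 rose and 1 fell at an adjusted p below 0.05 (Benjamini-Hochberg over all genes, from the quasi-likelihood test of edgeR), beside 26.2% of all genes called higher, 19.3% called lower and 45.6% in either direction. The 10 include Psma8, which passed the filter on low counts through its level after ICH, so its call does not test a rise. The 5 inducible subunits had a median log2 fold change of 1.61, the 31 constitutive subunits one of 0.19, and all tested genes one of 0.019.

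Psmb8, the replacement for Psmb5, was at 7.03, 4.76 and 3.10 CPM in the 3 Sham-Fabp4flox/flox mice and at 71.5, 54.2 and 37.7 CPM in the 3 ICH-Fabp4flox/flox mice. Sham-Fabp4CKO mice had 2.22, 2.37 and 2.30 CPM, and ICH-Fabp4CKO mice had 55.0, 24.6 and 69.4 CPM. Every ICH mouse lay far above every sham mouse, and ICH-Fabp4CKO mouse 2 was the lowest of the injured mice. All injured mice lay above all sham mice of their genotype in 34.4% of all genes in flox/flox and 33.2% in CKO mice. The log2 fold change was 3.40 ± 0.35 (SE) in flox/flox mice (adjusted p = 0.00056 by edgeR) and 4.43 ± 0.42 in CKO mice (adjusted p = 0.0048).

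Psmb9, the replacement for Psmb6, had the lowest level per kilobase of exon of the 5 in sham tissue, at 0.338 CPM per kb in flox/flox mice. It had 1.73, 1.15 and 0.826 CPM in Sham-Fabp4flox/flox mice and 0.740, 1.03 and 0.598 CPM in Sham-Fabp4CKO mice. After ICH it reached 14.6, 12.7 and 12.3 CPM in flox/flox mice and 12.9, 5.01 and 11.6 CPM in CKO mice. The groups did not overlap in either genotype, beside 34.4% (flox/flox) and 33.2% (CKO) of all genes with ICH higher. The injured flox/flox mice lay close together. The log2 fold change was 3.36 ± 0.30 (adjusted p = 0.0004 by edgeR) in flox/flox and 3.63 ± 0.45 (adjusted p = 0.006) in CKO mice. In GENCODE vM21, 212 of 3660 exon bases of Psmb9 lie over Tap1 on the other strand, and 498 of 3381 of Psmb8 over the antisense gene Gm20496. The library kit did not mark strand, so reads from these stretches cannot be assigned to 1 partner.

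Psmb10, the replacement for Psmb7, lay at 8.28 CPM per kb in Sham-Fabp4flox/flox mice, above the other catalytic replacements. Its sham levels were 16.7, 14.8 and 10.8 CPM in flox/flox mice and 10.2, 9.76 and 12.3 CPM in CKO mice. It rose to 50.6, 39.8 and 31.9 CPM in ICH-Fabp4flox/flox and to 36.4, 21.2 and 30.7 CPM in ICH-Fabp4CKO mice. Again no injured mouse overlapped the sham mice of its genotype, beside 34.4% (flox/flox) and 33.2% (CKO) of all genes with ICH higher. The log2 fold change was 1.49 ± 0.22 (adjusted p = 0.0022 by edgeR) in flox/flox and 1.45 ± 0.23 (adjusted p = 0.0093) in CKO mice, well under that of the other catalytic replacements.

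Psme1 and Psme2 encode the alpha and beta subunits of PA28. Psme1 stood at 36.5, 36.7 and 34.3 CPM in Sham-Fabp4flox/flox and at 89.2, 80.9 and 61.5 CPM in ICH-Fabp4flox/flox mice, a log2 fold change of 1.06 ± 0.15 (adjusted p = 0.0019 by edgeR). In CKO mice it went from 30.3, 29.4 and 35.8 CPM in sham to 80.9, 57.0 and 88.0 CPM after ICH, a log2 fold change of 1.25 ± 0.20 (adjusted p = 0.0091). Psme1 was the least changed of the 5 in fold terms in both genotypes, and the highest per kilobase in Sham-Fabp4flox/flox mice, at 16.2 CPM per kb.

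Psme2 was at 21.2, 17.7 and 16.5 CPM in Sham-Fabp4flox/flox and 73.4, 53.7 and 47.1 CPM in ICH-Fabp4flox/flox mice, a log2 fold change of 1.61 ± 0.19 (adjusted p = 0.00091 by edgeR). The CKO values were 15.7, 15.7 and 15.1 CPM in sham and 55.7, 31.3 and 57.9 CPM after ICH, a log2 fold change of 1.64 ± 0.25 (adjusted p = 0.0085). Both PA28 genes separated injured from sham mice without overlap, beside 34.4% (flox/flox) and 33.2% (CKO) of all genes with ICH higher. Psme2b, whose sequence is close to that of Psme2, had 0 to 2 counts in each sham mouse, 5, 7 and 8 in the ICH-Fabp4flox/flox mice and 11, 13 and 25 in the ICH-Fabp4CKO mice. Reads of Psme2 may be placed there, so Psme2b is uncertain and is given no fold change.

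**Figure D1:**
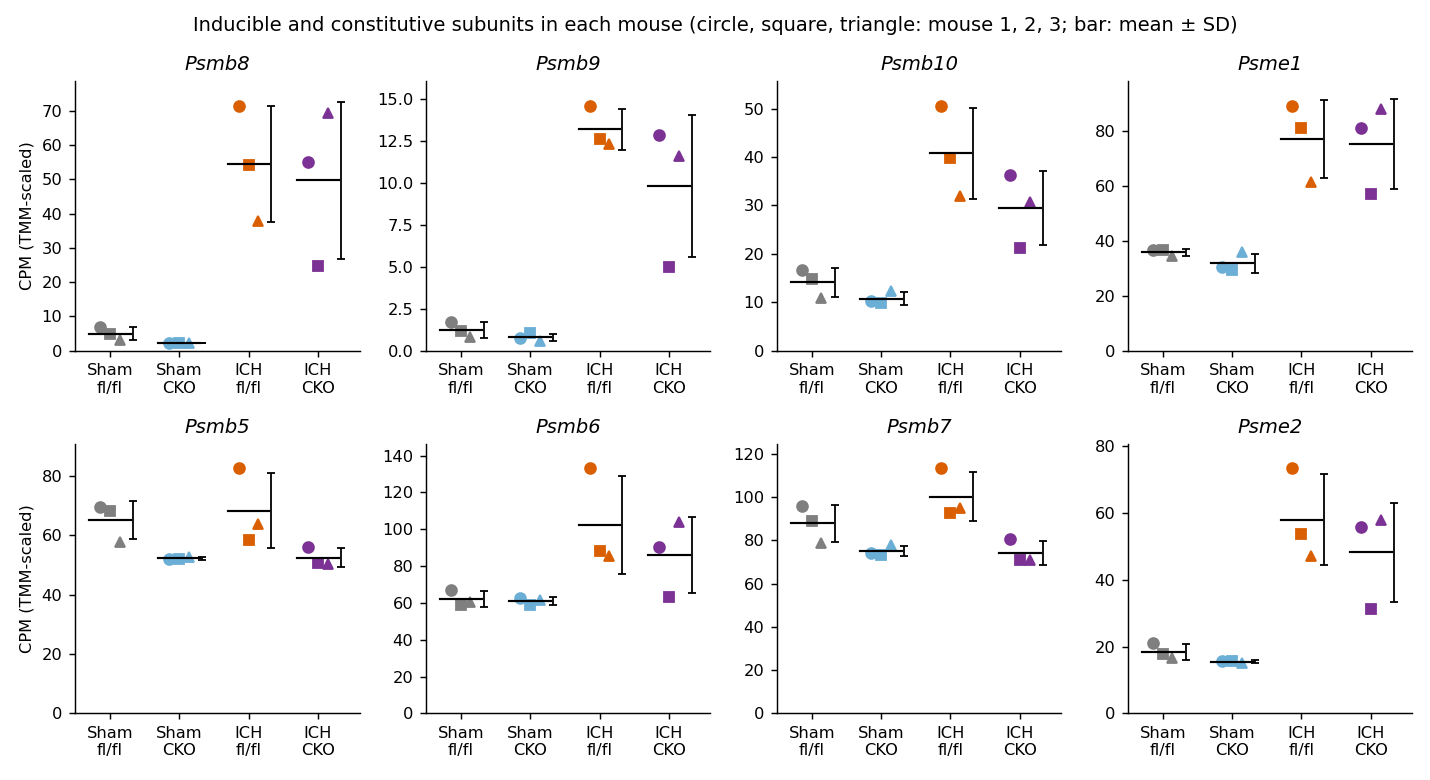
TMM-scaled CPM (vertical axis, from 0) of the 5 inducible subunits and of Psmb5, Psmb6 and Psmb7 in each mouse of the 4 groups (fl/fl is Fabp4flox/flox), with symbols for mouse 1, 2 and 3 and bars for the mean and SD of n = 3. Psmb8 lies between 24.6 and 71.5 CPM in the injured mice and at most at 7.03 CPM in the sham mice, while Psmb5 overlaps between sham and ICH in both genotypes.

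The constitutive partners behaved differently. Psmb5 had 69.6, 68.1 and 57.6 CPM in Sham-Fabp4flox/flox, 82.5, 58.5 and 63.9 CPM in ICH-Fabp4flox/flox, 52.0, 51.9 and 52.6 CPM in Sham-Fabp4CKO and 56.1, 50.7 and 50.4 CPM in ICH-Fabp4CKO mice. The sham and ICH values overlapped in both genotypes, with log2 fold changes of 0.027 ± 0.16 (adjusted p = 0.904 by edgeR) in flox/flox and 0.0085 ± 0.10 (adjusted p = 0.951) in CKO mice, whose sign turned with other scalings.

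Psmb7 had 95.9, 89.0 and 78.9 CPM in Sham-Fabp4flox/flox and 113, 92.7 and 94.8 CPM in ICH-Fabp4flox/flox mice. In CKO mice it had 74.1, 73.3 and 77.9 CPM in sham and 80.6, 70.8 and 70.9 CPM after ICH. These ranges overlapped too, and the log2 fold changes of 0.15 ± 0.14 (adjusted p = 0.419 by edgeR) and -0.017 ± 0.11 (adjusted p = 0.908) did not pass the test.

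Psmb6 was the exception among the 3. It had 67.2, 59.0 and 60.7 CPM in Sham-Fabp4flox/flox and 133, 88.1 and 85.5 CPM in ICH-Fabp4flox/flox mice, and rose with a log2 fold change of 0.67 ± 0.19 (adjusted p = 0.024 by edgeR). Sham-Fabp4CKO mice had 62.7, 58.9 and 61.5 CPM and ICH-Fabp4CKO mice 90.6, 63.3 and 104 CPM, a log2 fold change of 0.50 ± 0.19 that missed the threshold (adjusted p = 0.0845). On TMM-scaled CPM no injured mouse overlapped its shams in either genotype, as was so in 34.4% of all genes in flox/flox and 33.2% in CKO mice. The gap in CKO mice was narrow, 63.3 against 62.7 CPM, and on CPM of total counts these 2 groups overlapped. The call in flox/flox mice was lost without any 1 of the 3 sham mice, with an adjusted p of up to 0.103.

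The log2 ratio of each inducible catalytic gene to the constitutive gene whose place it takes needs no scaling between libraries. The ratio of Psmb8 to Psmb5 was -3.31, -3.84 and -4.22 in Sham-Fabp4flox/flox and -0.21, -0.11 and -0.76 in ICH-Fabp4flox/flox mice. It was -4.55, -4.45 and -4.52 in Sham-Fabp4CKO and -0.029, -1.04 and 0.46 in ICH-Fabp4CKO mice. The injured mice thus lay far above the sham mice, with ICH-Fabp4CKO mouse 2 the lowest of them. These ratios are of counts and are not adjusted for gene length.

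Over both genotypes the Psmb8 to Psmb5 log2 ratio was higher after ICH by 3.86, a 14.6-fold shift. That of Psmb9 to Psmb6 was higher by 2.94, or 7.70-fold, and that of Psmb10 to Psmb7 by 1.39, or 2.63-fold. All 6 injured mice were above all 6 sham mice for each of the 3 pairs. Each shift had p = 0.005 in a two-sided exact permutation test within genotype, adjusted over the 3 pairs to p = 0.005, which is the smallest value this design can give.

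Per kilobase of annotated exon, Psmb8 made up 1.95% ± 0.613 (SD, n = 3) of the sum of Psmb8 and Psmb5 in Sham-Fabp4flox/flox and 17.4% ± 3.33 in ICH-Fabp4flox/flox mice. In CKO mice these shares were 1.16% ± 0.0395 and 19.6% ± 7.74. Psmb9 made up 0.994% ± 0.306 of its pair with Psmb6 in Sham-Fabp4flox/flox and 6.34% ± 0.883 in ICH-Fabp4flox/flox mice, and Psmb10 made up 24.2% ± 2.33 and 44.6% ± 3.75 of its pair with Psmb7. On this scale Psmb10 held the largest share of its pair in sham tissue and Psmb9 the smallest in every group. Exons of all annotated isoforms were counted in the lengths, which lowers the per-kilobase level of genes with many isoforms.

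**Figure D2:**
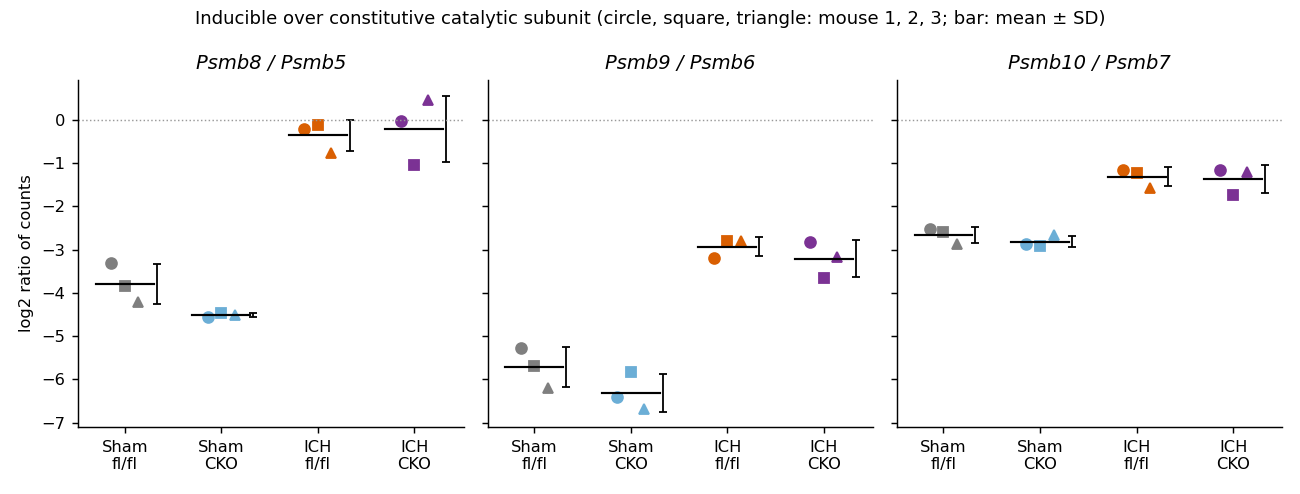
Log2 ratio of counts (vertical axis) of each inducible catalytic subunit to its constitutive counterpart in each mouse, with symbols for mouse 1, 2 and 3 and bars for the mean and SD of n = 3; the dotted line marks equal counts. All 6 injured mice lie above all 6 sham mice in each panel, and Psmb8 to Psmb5 moves furthest, by 3.86.

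The rest of the core and the 19S cap changed little in ICH-Fabp4flox/flox mice. Of the 31 constitutive 26S subunits, 2 rose, Psmb6 and the structural beta subunit Psmb2, and none fell in edgeR or DESeq2, beside the 26.2% of all genes called higher. Without ICH-Fabp4flox/flox mouse 3, 7 of the 31 rose, beside 28.9% of all genes, and without any 1 sham mouse none did. The fit of all 12 libraries called 8 of the 31 higher, beside 29.0% of all genes. Psmb2 went from 66.3, 52.8 and 55.3 CPM to 110, 82.9 and 71.0 CPM, a log2 fold change of 0.55 ± 0.18 (adjusted p = 0.0417 by edgeR). The call was lost without ICH-Fabp4flox/flox mouse 1, without ICH-Fabp4flox/flox mouse 2 and without any 1 of the sham mice, with an adjusted p of up to 0.17, and also with RLE factors, total counts or no filter. The 7 alpha ring genes ran from 0.17 (Psma2) to 0.44 (Psma1) on the log2 fold change scale, the ATPases from -0.034 (Psmc5) to 0.40 (Psmc4), the other base subunits from -0.062 (Psmd1) to 0.17 (Psmd4) and the lid from 0.040 (Psmd12) to 0.48 (Psmd8), and none of these passed the test.

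All 3 injured flox/flox mice lay above all 3 sham mice in 16 of the 31 constitutive subunits, beside 34.4% of all genes that did so. On CPM of total counts, with no TMM scaling, the number was 10 of 31, beside 30.8% of all genes on that scale. ICH-Fabp4flox/flox mouse 1, the library with the high mitochondrial share, was the highest of its group in 30 of the 31 subunits, and in 26 on CPM of total counts. Without it the median log2 fold change of the 31 genes was 0.098 in place of 0.19. The part of RNA quality in this was not tested.

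**Figure D3:**
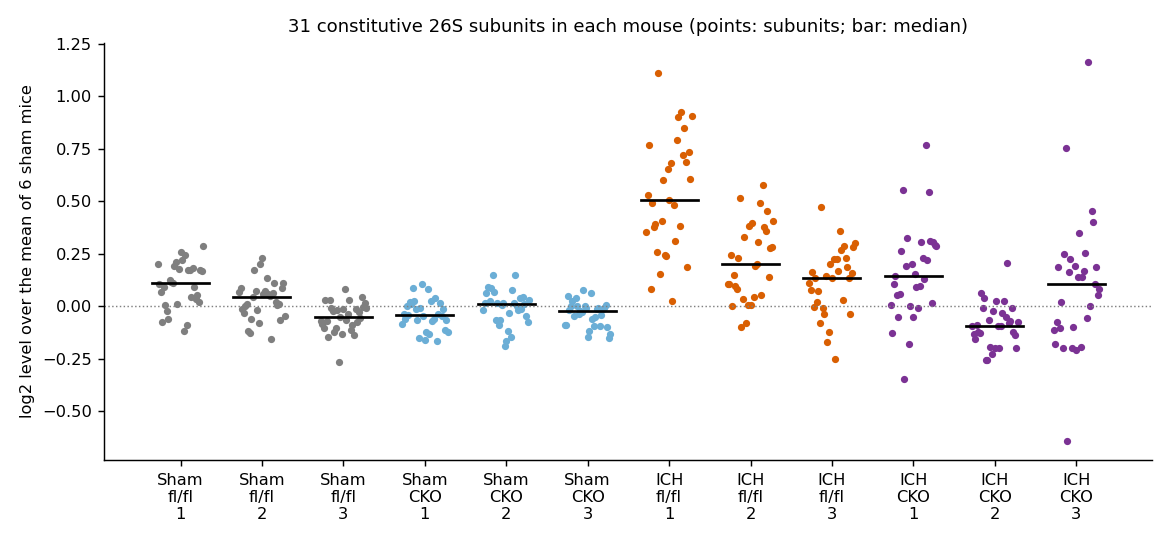
Level of the 31 constitutive 26S subunits in each mouse as log2 over the mean of the 6 sham mice (vertical axis), 1 point per subunit and a bar at the median. ICH-Fabp4flox/flox mouse 1 has the highest median, 0.50, and ICH-Fabp4CKO mouse 2 the lowest, -0.095.

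Other members moved after ICH outside the 26S particle. Psme4, which encodes the PA200 activator, went from 28.1, 32.9 and 25.5 CPM in Sham-Fabp4flox/flox to 70.1, 53.9 and 40.4 CPM in ICH-Fabp4flox/flox mice and from a range of 24.2 to 26.9 CPM in Sham-Fabp4CKO to 51.8, 32.3 and 63.7 CPM in ICH-Fabp4CKO mice. No injured mouse overlapped the sham mice of its genotype, beside 34.4% (flox/flox) and 33.2% (CKO) of all genes with ICH higher. It rose in both genotypes, with log2 fold changes of 0.88 ± 0.21 (adjusted p = 0.0126 by edgeR) and 0.96 ± 0.25 (adjusted p = 0.0323). In flox/flox mice the adjusted p was 0.0504 without Sham-Fabp4flox/flox mouse 3. Psme3, a nuclear activator of the same family as PA28, had log2 fold changes of -0.16 and -0.077 that did not pass the test.

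Psmd5, a chaperone of 19S assembly that is not part of the finished particle, was the member that fell. It had 55.2, 59.7 and 61.0 CPM in Sham-Fabp4flox/flox and 45.5, 45.7 and 43.8 CPM in ICH-Fabp4flox/flox mice, with CKO values of 67.8, 66.2 and 67.5 CPM in sham and 44.4, 55.4 and 38.8 CPM after ICH. The log2 fold changes were -0.42 ± 0.12 (adjusted p = 0.0237 by edgeR) and -0.54 ± 0.15 (adjusted p = 0.0397). In flox/flox mice the adjusted p was 0.0694 without Sham-Fabp4flox/flox mouse 2 and 0.0593 without ICH-Fabp4flox/flox mouse 2. The other 19S chaperones, Psmd9 and Psmd10, and the PI31 inhibitor gene Psmf1, whose log2 fold changes were 0.19 in flox/flox and 0.093 in CKO mice, did not pass the test.

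Psma8, a core subunit known from testis, had 9, 5 and 7 counts in Sham-Fabp4flox/flox and 52, 43 and 24 counts in ICH-Fabp4flox/flox mice, a log2 fold change of 2.74 ± 0.50 (adjusted p = 0.0049 by edgeR). With so few sham counts the gene passed the filter on low counts through its level after ICH. Its call therefore does not test a rise. Psma8 had 29, 7 and 57 counts in ICH-Fabp4CKO mice against 6, 8 and 10 in their shams, so these groups overlapped at ICH-Fabp4CKO mouse 2, and the filter on low counts kept the gene out of that test. Psmb11, known from the thymus, had at most 4 counts in any library and was tested nowhere. Psmc3ip, a meiotic recombination factor that only shares the name, rose in flox/flox mice with a log2 fold change of 1.47 ± 0.35 (adjusted p = 0.013, and 0.0527 without ICH-Fabp4flox/flox mouse 2), while Psme3ip1 had -0.050 and did not pass.

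**Figure D4:**
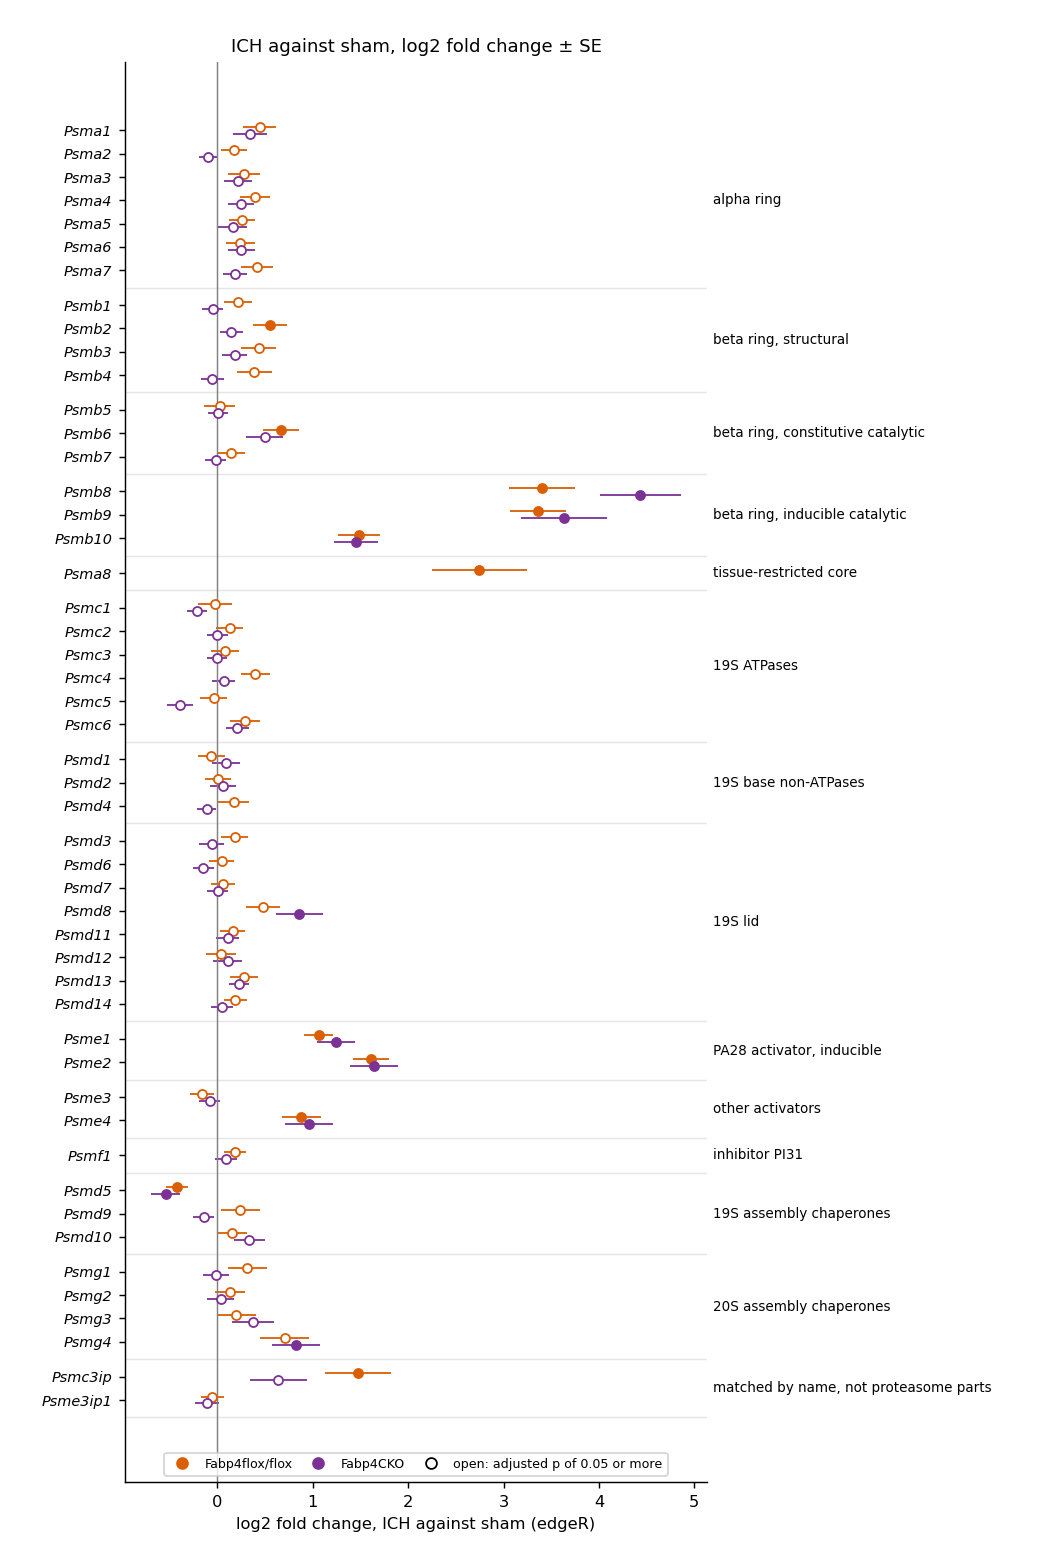
Log2 fold change of ICH against sham with its SE (horizontal axis) for each tested member by role, in flox/flox (orange) and CKO mice (purple), 3 mice per group; filled points pass an adjusted p of 0.05, and Psme2b is left out. The 5 inducible subunits lie between 1.06 and 4.43, and the 31 constitutive subunits between -0.39 and 0.86.

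The same comparison in CKO mice asked whether the response was there in that genotype too. All 5 inducible subunits rose, by 2.37-fold for Psme1 to 21.6-fold for Psmb8, with a median log2 fold change of 1.64. Of 49 members tested, 9 rose and 1 fell, beside 24.5% of all genes called higher, 11.1% called lower and 35.6% in either direction. The 9 include the uncertain Psme2b, which passed the filter on low counts through its level after ICH, so its call does not test a rise. Besides the inducible genes, Psme4 and Psme2b, those that rose were the lid subunit Psmd8 (log2 fold change 0.86 ± 0.25, adjusted p = 0.0403 by edgeR) and the 20S chaperone gene Psmg4 (0.83 ± 0.25, adjusted p = 0.0462). Both had values above 0 in flox/flox mice too, 0.48 and 0.71, which missed the threshold there. The call of Psmg4 was lost on total counts (adjusted p = 0.0568 by edgeR) and with no filter on low counts (adjusted p = 0.0558). The other 20S chaperone genes, Psmg1, Psmg2 and Psmg3, passed in neither genotype.

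The CKO calls depended on single libraries. Without ICH-Fabp4CKO mouse 2, 22 members were called, 20 of them higher, Psmb6 and 5 alpha ring genes among them, but this fit also called 34.8% of all genes higher and 32.7% lower. Without ICH-Fabp4CKO mouse 1 or mouse 3, 6 were called, beside 10.6% and 20.4% of all genes. Leaving out Sham-Fabp4CKO mouse 1, 2 or 3 left 2, 2 and 4 calls, beside 5.66%, 5.62% and 5.03% of all genes, and Psmb8 and Psmb9 were called in all of these fits. Psmb10, Psme1 and Psme2 lost their calls in 2, 2 and 3 of them, with adjusted p-values of up to 0.0558. Psme4, Psmd5, Psmd8 and Psmg4 lost theirs in each of these fits but the one without ICH-Fabp4CKO mouse 2, with adjusted p-values of up to 0.149. In flox/flox mice all 5 were called in every fit, while the total went from 11 to 17 without ICH-Fabp4flox/flox mouse 3, a fit that called 54.7% of all genes.

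Constitutive subunits in CKO mice had a median log2 fold change of 0.067, which was -0.014 on total counts, against 0.014 for all genes. Without ICH-Fabp4CKO mouse 2 it was 0.14, without mouse 1 it was 0.020 and without mouse 3 it was 0.0096. Of the 31, 1 gene, Psmd8, rose and none fell in edgeR, beside 24.5% of all genes called higher and 11.1% lower. In this test 3 of the 31 had an unadjusted p below 0.05, beside 52.4% of all genes. DESeq2 called Psmd8 higher and the ATPase genes Psmc1 and Psmc5 lower, beside 23.8% and 19.5% of all genes. With RLE factors or with all 12 libraries in 1 fit, edgeR also called Psmc5 lower. Without ICH-Fabp4CKO mouse 2, 10 of the 31 rose and 1 fell, in a fit that called 5203 of 14963 genes higher and 4896 lower. The ends of the range were Psmd8 and the ATPase subunit Psmc5 (-0.39 ± 0.14, adjusted p = 0.0624 by edgeR). All injured CKO mice lay above all their shams in 3 of the 31 genes and below them in 3, beside 33.2% and 28.9% of all genes.

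The direct comparison of CKO with flox/flox mice after ICH asked whether these genes differed between the genotypes in injured tissue. No member passed the test in edgeR or DESeq2, and 2 of 50 tested had an unadjusted p below 0.05, Psmb7 and the uncertain Psme2b, beside 12.2% of all genes. edgeR called 0% of all genes here and DESeq2 2.97%, and all 3 CKO mice lay above all 3 flox/flox mice in 8.30% of genes. The 5 inducible subunits had log2 differences of -0.069 ± 0.41 for Psmb8, -0.37 ± 0.36 for Psmb9, -0.41 ± 0.25 for Psmb10, 0.023 ± 0.22 for Psme1 and -0.21 ± 0.28 for Psme2, with adjusted p from 0.545 to 0.976. Without ICH-Fabp4CKO mouse 2 the difference was -0.051 for Psmb9 and -0.22 for Psmb10, without ICH-Fabp4CKO mouse 1 it was -0.61 for Psmb9, and without ICH-Fabp4flox/flox mouse 1 it was -0.25 for Psmb10. The groups overlapped for each of the 5, and with SEs of this size a moderate difference in either direction would not have been detected.

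The ratios of the catalytic pairs gave the same picture. The difference between CKO and flox/flox mice after ICH was 0.16 for Psmb8 to Psmb5, -0.28 for Psmb9 to Psmb6 and -0.047 for Psmb10 to Psmb7 on the log2 scale. The two-sided exact permutation p was 0.8, 0.5 and 0.9, adjusted to 0.9 for each pair, where 0.1 is the smallest p that 3 against 3 mice allow. Without ICH-Fabp4CKO mouse 2 the Psmb8 to Psmb5 difference was 0.58 (exact permutation p = 0.2).

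The constitutive subunits lay lower in injured CKO than in injured flox/flox mice without any single gene passing the test. Their median log2 difference was -0.19 against 0.062 for all genes, 27 of the 31 were below 0, and the median stayed below that of all genes under each alternative and each left-out library. All 3 CKO mice lay below all 3 flox/flox mice in 15 of the 31, beside 11.5% of all genes. The lowest were the structural beta subunit genes Psmb3 (-0.40 ± 0.20, adjusted p = 0.469 by edgeR) and Psmb4 (-0.40 ± 0.20, adjusted p = 0.474) and the catalytic Psmb7 (-0.38 ± 0.15, adjusted p = 0.398).

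Single libraries and other cell types moved with this. Without ICH-Fabp4flox/flox mouse 1 the median of the 31 was -0.080 with 24 genes below 0, and without ICH-Fabp4CKO mouse 2 it was -0.14 with 24 below 0. All 8 oligodendrocyte markers and all 8 endothelial markers were also below 0 in the same comparison, with medians of -1.17 and -1.26. None of these markers passed in edgeR. All 8 of each list had an unadjusted p below 0.05, beside 12.2% of all genes. DESeq2 called 5 of each list lower, beside 1.64% of all genes. Their summed levels ran from 18725 to 28819 CPM and from 634 to 1370 CPM in ICH-Fabp4flox/flox against 7255 to 11646 CPM and 350 to 429 CPM in ICH-Fabp4CKO mice, with no marker of either list at 0. Their part in the difference was not tested.

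**Figure D5:**
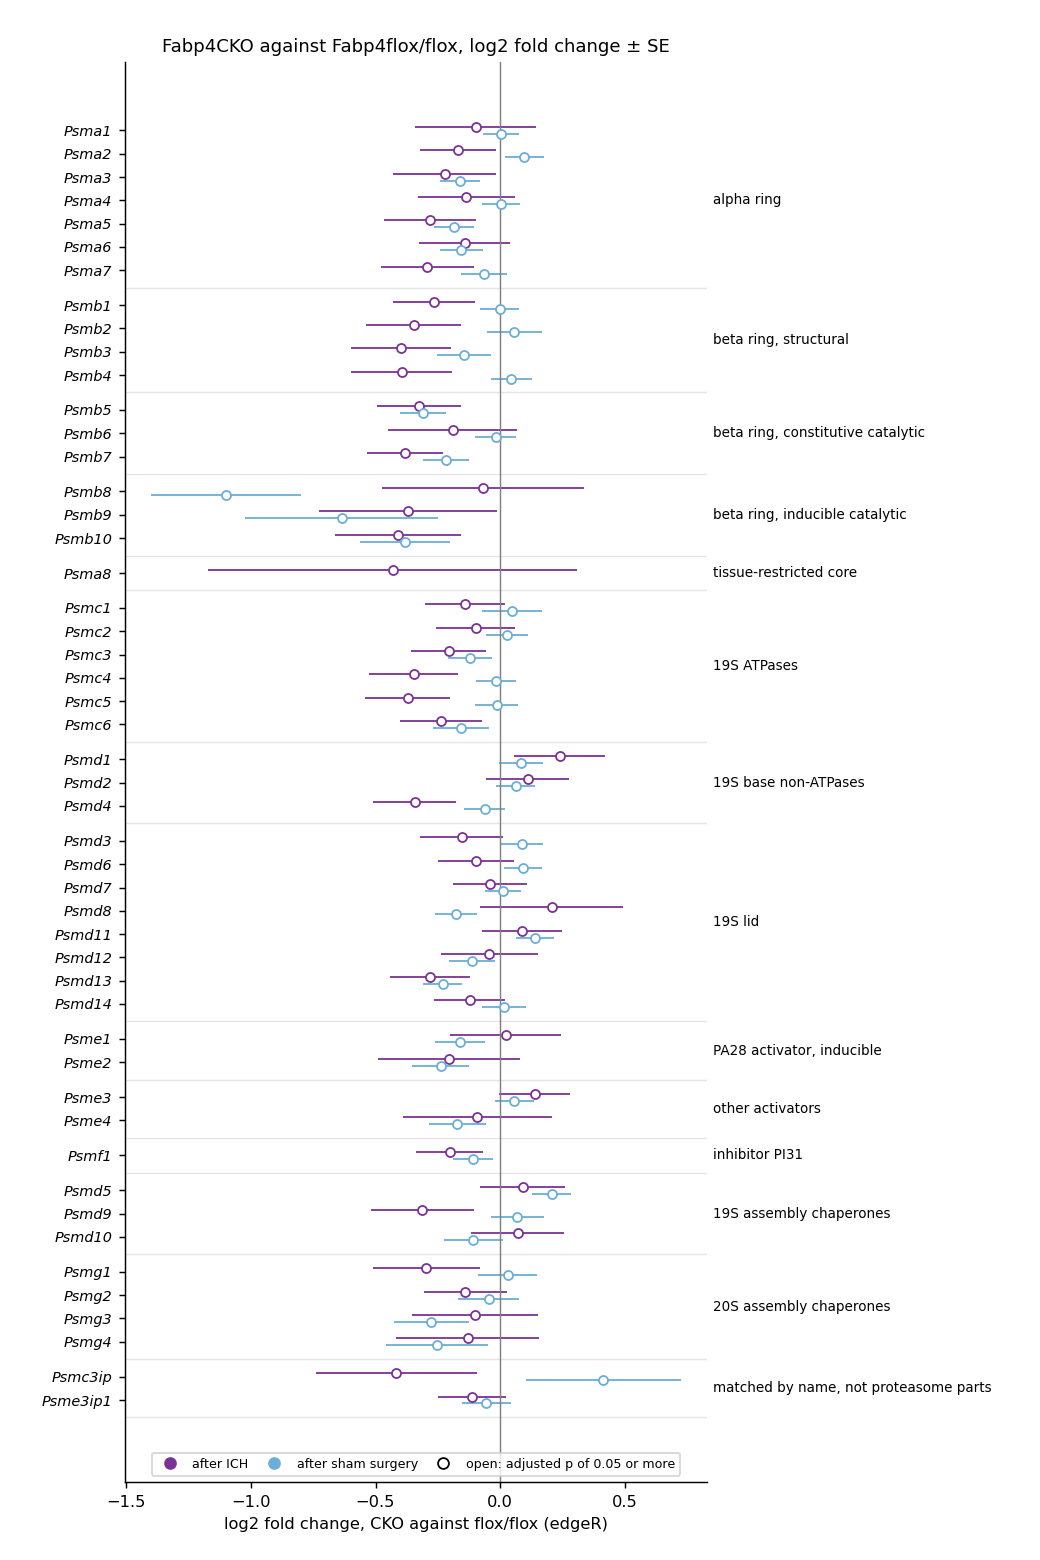
Log2 fold change of CKO against flox/flox with its SE (horizontal axis) for each tested member by role, after ICH (purple) and after sham surgery (blue), 3 mice per group; open points did not pass an adjusted p of 0.05, and Psme2b is left out. No member passes in either comparison, and after ICH 27 of the 31 constitutive subunits lie below 0.

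In sham mice no member passed the test, and 6 of 48 had an unadjusted p below 0.05, beside 10.2% of all genes and 0.111% called lower at the adjusted threshold. DESeq2 called 0 members as well, beside 0.842% of all genes. The widest difference was that of Psmb8, at 2.22 to 2.37 CPM in CKO and 3.10 to 7.03 CPM in flox/flox mice, a log2 difference of -1.10 ± 0.30 (adjusted p = 0.409 by edgeR). These groups did not overlap, as was so in 5.98% of all genes with CKO higher and 8.86% with CKO lower. All 5 inducible subunits lay below 0, with a median of -0.38 against 0.0026 for all genes. Monocyte and macrophage markers summed to 50.1 to 55.1 CPM in Sham-Fabp4CKO and 55.6 to 74.1 CPM in Sham-Fabp4flox/flox mice, and endothelial markers to 260 to 268 CPM and 280 to 318 CPM, with no overlap in either. Their part in this was not tested. The 31 constitutive genes had a median of -0.014, with all CKO mice above all flox/flox mice in 2 and below them in 7. Without Sham-Fabp4flox/flox mouse 3, 4 members were called lower in CKO mice, Psmb5, Psmb7, Psmb8 and Psmb10, but this fit also called 9.12% of all genes lower and 10.5% higher.

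Whether ICH acted differently in the genotypes was asked with an interaction term over all 12 mice. No member passed in edgeR or DESeq2, and 1 of 50 had an unadjusted p below 0.05, the uncertain Psme2b, beside 9.94% of all genes. edgeR called 0.0199% of all genes and DESeq2 1.26%. Psmb8 had an interaction of 0.98 ± 0.56 (adjusted p = 0.587 by edgeR) and the other 4 inducible genes lay between -0.078 and 0.22. The interaction of the 31 constitutive genes had a median of -0.18, which was -0.031 without ICH-Fabp4flox/flox mouse 1 and -0.11 without ICH-Fabp4CKO mouse 2.

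Genes that act next to the immunoproteasome rose with it after ICH. Of 12 genes for MHC class I loading, 10 rose in flox/flox and 9 in CKO mice, beside 26.2% and 24.5% of all genes called higher. Their median log2 fold changes were 1.97 and 2.64. The transporter gene Tap1, the neighbour of Psmb9, rose by 3.49 and 3.88, the light chain gene B2m by 2.76 and 3.69, and Nlrc5, a transactivator of class I and immunoproteasome genes, by 3.51 and 4.55. The chaperone genes Calr and Canx did not pass in either genotype.

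Of 11 tested genes of interferon gamma signalling, 9 rose in flox/flox and 9 in CKO mice, beside 26.2% and 24.5% of all genes called higher. The filter on low counts kept only 10 of these genes in the comparison of sham mice. A gene kept only through its level after ICH has a call that does not test a rise. Irf1, a transcription factor that drives immunoproteasome genes, rose with log2 fold changes of 2.41 ± 0.16 (adjusted p = 0.00029 by edgeR) and 2.51 ± 0.28 (adjusted p = 0.0055). Ifng itself lay at 0 to 0.213 CPM in every library and was not tested, so its RNA was not measurable at this depth.

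Of 10 genes that control the constitutive proteasome, edgeR called 3 higher and 1 lower in flox/flox mice, beside 26.2% and 19.3% of all genes. It called 4 higher and 0 lower in CKO mice, beside 24.5% and 11.1%, with 4 at an unadjusted p below 0.05, beside 52.4% of all genes. Nfe2l1, the factor that restores proteasome genes when the particle is impaired, had log2 fold changes of -0.37 ± 0.19 (adjusted p = 0.139 by edgeR) and -0.34 ± 0.15 (adjusted p = 0.101). In CKO mice it was called lower by DESeq2 (-0.37, adjusted p = 0.0142) and, in edgeR, without ICH-Fabp4CKO mouse 2 (-0.44, adjusted p = 0.0095). Nfe2l2, its relative in the oxidative stress response, rose by 1.95 ± 0.20 (adjusted p = 0.00062) and 2.81 ± 0.37 (adjusted p = 0.0066).

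Of 11 genes for proteins that bind the proteasome, edgeR called 2 higher and 2 lower in flox/flox mice, beside 26.2% and 19.3% of all genes. The 20S maturation factor Pomp (0.57) and the small lid subunit Sem1 (0.81) rose, while the deubiquitinase Usp14 (-0.72) and the ubiquitin ligase Ube3c (-0.81) fell. In CKO mice edgeR called 0 higher and 3 lower, Usp14 (-0.49), Ube3c (-0.38) and Tmub1 (-0.58), beside 24.5% and 11.1% of all genes. Of the 11, 4 had an unadjusted p below 0.05, beside 52.4% of all genes. DESeq2 also called Pomp higher there (0.26, adjusted p = 0.0411), and without ICH-Fabp4CKO mouse 2 edgeR called Pomp (adjusted p = 0.0214) and Sem1 (adjusted p = 0.0022) higher. Leaving out 1 library ended several of these calls: Pomp without any 1 Sham-Fabp4flox/flox mouse (adjusted p up to 0.12 by edgeR), Sem1 without mouse 1 or 2 of that group (up to 0.0804), and Usp14 in CKO mice without any 1 library but ICH-Fabp4CKO mouse 2 (up to 0.138). Of 14 ubiquitin and shuttle genes, edgeR called 2 higher and 1 lower in flox/flox and 1 higher and 1 lower in CKO mice, beside 45.6% and 35.6% of all genes in either direction. DESeq2 called 2 higher and 5 lower in each genotype, beside 22% and 20.4% of all genes in flox/flox and 23.8% and 19.5% in CKO mice. Ubb, a polyubiquitin gene, did not pass in edgeR and was called lower by DESeq2, Rps27a rose in both genotypes by 0.79 and 0.81, and the shuttle gene Ubqln2 fell in both, by 0.97 and 0.98 on the log2 scale.

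Markers of immune cells rose in the same tissue, where edgeR called 26.2% of all genes higher in flox/flox and 24.5% in CKO mice. All 8 monocyte and macrophage markers rose in each genotype, with summed levels of 50.1 to 74.1 CPM over the 6 sham mice, 562 to 2254 CPM in ICH-Fabp4flox/flox and 415 to 2892 CPM in ICH-Fabp4CKO mice. The filter on low counts kept only 2 of these 8 in the comparison of sham mice. The others were tested after ICH through their levels in injured mice, so their calls do not test a rise. Of 8 microglial markers 7 rose in each genotype, with sums of 434 to 526 CPM in sham, 1657 to 1848 CPM in ICH-Fabp4flox/flox and 1826 to 4720 CPM in ICH-Fabp4CKO mice. Among the monocyte markers Ccr2, Ly6c2, Ms4a4c and Chil3 were at 0 in at least 1 sham mouse, and no microglial marker was at 0. Ly6g, a neutrophil marker, was at 0 in all ICH-Fabp4flox/flox mice, but its list as a whole was higher there. The 8 neutrophil markers summed to 1.04 to 1.91 CPM in Sham-Fabp4flox/flox and 17.6 to 50.2 CPM in ICH-Fabp4flox/flox mice. The part of these cells in the rise of the inducible subunits was not tested.

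Within the injured groups the inducible subunits, the constitutive subunits and the monocyte markers were lowest in the same mice. The summed level of the 5 subunits was 299, 241 and 191 CPM in ICH-Fabp4flox/flox mice 1, 2 and 3, where the monocyte markers summed to 2254, 1287 and 562 CPM. In ICH-Fabp4CKO mice the 5 subunits summed to 241, 139 and 258 CPM and the monocyte markers to 2289, 415 and 2892 CPM. ICH-Fabp4flox/flox mouse 3 and ICH-Fabp4CKO mouse 2 were the low mice on both measures. They were also lowest for the 31 constitutive subunits, with sums of 2897 CPM against 3089 and 3818 CPM, and of 2544 CPM against 2954 and 2997 CPM. With 3 mice per group this was not tested.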

How the data were processed

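The authors deposited estimated counts per gene, not normalized and in part not whole numbers, as 1 table of 12 poly(A) RNA libraries, 3 per group. The submitters' processing notes name Bowtie2 2.2.8, HISAT2, StringTie 1.3.1 and DESeq2, while the genome build and the counting step were not given in the sources used here. Counts were rounded to whole numbers. edgeR 4.0.16 in R 4.3.3 fitted the 2 groups compared (all 12 libraries for the interaction) with TMM scaling, its filter on low counts (minimum 10, total 15), the quasi-likelihood test and Benjamini-Hochberg adjustment over all genes at 0.05. Ratios of catalytic pairs were tested by two-sided exact permutation. DESeq2 1.42.0, other scalings and filters, a replicate block, 1 fit of all 12 libraries and leaving out each library were alternatives. Scripts were tested on simulated counts. Exon lengths came from GENCODE vM21 and promoter windows from RefSeq on GRCm38.p6, matched by identifier or symbol, with windows for 43 of the 51 members.

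Genes named with values were fixed by role: the 5 inducible subunits and the constitutive catalytic genes in each mouse, other activators, the inhibitor, chaperones, the members with the largest called changes and the ends of each group's range, and fixed partner genes. Lists of MHC class I loading, interferon gamma signalling, proteasome gene control, proteasome-bound partners, ubiquitin and shuttles, and cell type markers (microglia, monocyte and macrophage, neutrophil, T and NK cell, endothelial, astrocyte, oligodendrocyte, neuron, striatal neuron) were set by hand. Members and lists were chosen with earlier results of these data known. Nothing says that replicates came from separate litters or days, so p-values measure the spread between these mice. Single genes of the fixed lists that are withheld are not reported here.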

Additional observations from a re-analysis of the deposited data

Results flagged for a closer look

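Psma2, an alpha ring subunit of the core, was marked because the genotype effect pointed in opposite directions in the 2 surgeries. All 3 Sham-Fabp4CKO mice lay above all 3 Sham-Fabp4flox/flox mice, with a log2 difference of 0.098, beside 5.98% of all genes. All 3 ICH-Fabp4CKO mice lay below all 3 ICH-Fabp4flox/flox mice, with a log2 difference of -0.17, beside 11.5% of all genes. The gaps were narrow, with CKO at 81.59 against 80.99 CPM in sham and at 81.60 against 81.66 CPM after ICH. The 2 log2 differences are -0.27 apart. In the fit over all 12 libraries the interaction of Psma2 was -0.31 ± 0.16 (adjusted p = 0.563 by edgeR), so the opposition did not pass the test. With 3 mice per group no mouse could be marked as an outlier within its group.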

How the results depend on the processing

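The 5 inducible subunits were called higher after ICH in both genotypes under each other scaling, filter and tool and under the block; the left-out libraries that ended such a call in CKO mice are given above. Leaving out 1 library gave 8 to 17 called members in flox/flox mice, beside 28% to 54.7% of all genes. It gave 2 to 22 in CKO mice and 0 to 4 between the genotypes in sham. The shares of all genes for the CKO fits and for the fit with 4 calls are given above. The fit of all 12 libraries called 19 members in flox/flox mice after ICH, all 11 of the main fit among them, beside 49% of all genes. No member was called between the genotypes after ICH or in the interaction under any alternative run. Of 803 alternatives over 62 gene results, 707 kept direction and call, 62 lost the call, 10 gained one and 24 turned sign.

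The sign turned for values near 0. After ICH in flox/flox mice Psmb5 was -0.015 with RLE factors, -0.045 on total counts, -0.016 in DESeq2 and -0.022 with no filter, and -0.12 to 0.086 with 1 library left out. In CKO mice it was -0.00645, -0.073, -0.010 and -0.00850 in the same order and -0.054 to 0.031 with 1 library left out, where Psmb7 ran from -0.092 to 0.014. Between the genotypes after ICH, Psme1 was -0.00366 with RLE factors, -0.036 on total counts, -0.0015 in DESeq2 and -0.036 in the fit of all 12. With 1 library left out the genotype difference ran from -0.39 to 0.26 for Psmb8, -0.61 to -0.051 for Psmb9, -0.59 to -0.22 for Psmb10, -0.14 to 0.19 for Psme1, -0.36 to 0.031 for Psme2 and -0.35 to 0.015 for Psmb6. The pair differences ran from -0.18 to 0.58 for Psmb8 to Psmb5, -0.48 to -0.061 for Psmb9 to Psmb6 and -0.17 to 0.14 for Psmb10 to Psmb7. The cause was not tested.

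What the mouse numbers stand for was not given in the sources used here. Deviations of same-numbered mice correlated at 0.20, 0.023 and 0.13 for ICH against sham in flox/flox mice. Between the genotypes after ICH they correlated at 0.31, -0.17 and -0.58, and not every mouse correlated best with its own number. With 3 mice per group these values do not tell whether the numbers mark a batch. With the number as a replicate block, 13 members were called in flox/flox mice after ICH, beside 49.3% of all genes. In CKO mice 7 were called, in a fit that called 2579 of 14737 genes higher and 1105 lower. In the other comparisons 0 members were called. The 3 pair shifts after ICH had an exact p of 0.031 under the block, the smallest it allows.

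Low genes (Psma8, Psmb11, Psme2b) rest on few counts, and overlapping exons were not separated by strand.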

Other observations

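Other marker lists moved as follows, beside 26.2% of all genes called higher by edgeR after ICH in flox/flox mice and 24.5% in CKO mice. Of the 8 neuron markers edgeR called 7 lower in flox/flox and 1 in CKO mice after ICH, beside 19.3% and 11.1% of all genes. Their median log2 fold changes were close, at -1.20 and -1.15. In CKO mice 7 of the 8 had an unadjusted p below 0.05, beside 52.4% of all genes. DESeq2 called all 8 lower in each genotype, beside 20.4% and 19.5% of all genes. Striatal neuron markers had 0 of 8 and 3 of 8 lower in edgeR, and 0 of 8 and 7 of 8 lower in DESeq2. Their sums ran from 1762 to 5622 CPM among Sham-Fabp4flox/flox and from 3722 to 6603 CPM among Sham-Fabp4CKO mice. Of 8 astrocyte markers 3 rose in each genotype, with Gfap at 4.04 and 4.26. All 8 endothelial markers rose in flox/flox and 4 in CKO mice, and 3 and 0 of 8 oligodendrocyte markers rose. All 4 tested neutrophil markers rose in flox/flox mice and 5 of 6 in CKO mice, with sums of 17.6 to 50.2 CPM and 17.5 to 191 CPM after ICH. Of the T and NK cell markers, 5 of 6 tested rose in flox/flox and 2 of 3 in CKO mice. The filter on low counts kept only 1 neutrophil and 1 T and NK cell marker in the comparison of sham mice. Most markers of these 2 lists were thus tested through their levels after ICH, so their calls do not test a rise. Between the genotypes after ICH edgeR called no marker of any list. The unadjusted p was below 0.05 for 8 endothelial, 8 oligodendrocyte, 4 neutrophil, 3 microglial, 3 T and NK cell and 1 astrocyte marker, beside 12.2% of all genes. DESeq2 called 3 neutrophil markers higher in CKO mice, beside 1.33% of all genes. It called 5 endothelial, 5 oligodendrocyte, 2 astrocyte and 1 T and NK cell marker lower, beside 1.64%.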
